A study of Homo sapiens with 2 samples.

Results

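The genes described here are the transcription factor gene NFE2L2, which encodes NRF2, its repressor gene KEAP1, and 8 genes of thiol and quinone antioxidant defence: NQO1, GCLC, GCLM, TXNRD1, SRXN1, OSGIN1, TXN and ME1. They were taken by symbol from the deposited table of read counts, where all 10 were found among 44591 genes, and all 10 were among the 14578 kept genes, those with 1 CPM or more (counts scaled to 1000000 reads) in one library or both. The series compared poly(A)-selected RNA of MHCC97H and MHCC97L, both labelled as wild-type hepatocellular carcinoma cells, in a search for RNA-binding protein genes tied to metastasis. MHCC97H was described as having a high and MHCC97L a low spontaneous metastatic potential, and both were grown in the same serum-supplemented medium, with no treatment named. The lines are sister clones of the human MHCC97 line, so each stands for 1 clone. Each was represented by 1 library.

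NRF2 is the main transcription factor of the antioxidant response. In unstressed cells KEAP1 binds NRF2 and presents it to a CUL3 ubiquitin ligase for degradation, and oxidants or electrophiles that modify cysteines of KEAP1 let NRF2 accumulate. NRF2 then pairs with small MAF proteins on antioxidant response elements and activates genes for glutathione and thioredoxin metabolism, quinone reduction and NADPH supply, a system prominent in hepatocytes, which handle many reactive compounds. Since NRF2 is controlled largely through protein stability, the mRNA level of NFE2L2 does not by itself report its activity.

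The antioxidant response element core was sought in RefSeq promoter windows of build GRCh38.p14, each running from 250 bases before to 50 bases after a gene start. All 10 genes had a window, and 13 windows were listed for them. The core TGACNNNGC, sought on both strands, was in 5 of these 13 windows, belonging to 4 of the 10 genes, against 13.3% of 35116 windows of all genes. The related core TGAGNNNGC, which cannot match the same bases on the same strand, was in 6 of the 13 windows and 6 of the 10 genes, against 18.3% of all windows. Both percentages are per window. No share per gene was computed over all genes, so the counts of genes have no background beside them. The sequences below are shown because they place one or other of these cores beside genes whose counts went in different directions. Each is given 5′ to 3′ with 10 bases on either side, in the orientation in which the core reads, and capitals mark the core. For each gene the match with TGACNNNGC farthest before the gene start of its window is shown. For NFE2L2, OSGIN1 and NQO1, which had none, the match with TGAGNNNGC chosen in the same way is shown. TXNRD1 also had a TGACNNNGC match 99 bases before another gene start, while the one shown lies 102 bases before its own.
NFE2L2, chr2:177264259-177264287, minus strand: gtctggggacTGAGCCCGCtcgcgtgggc
KEAP1, chr19:10502807-10502835, minus strand: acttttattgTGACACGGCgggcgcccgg
GCLM, chr1:93909446-93909474, plus strand: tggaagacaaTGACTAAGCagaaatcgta
TXNRD1, chr12:104286920-104286948, minus strand: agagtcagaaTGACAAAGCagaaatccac
ME1, chr6:83431170-83431198, minus strand: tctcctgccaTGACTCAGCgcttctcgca
OSGIN1, chr16:83953131-83953159, minus strand: ttcataagcgTGAGTCAGCaggggcccgt
NQO1, chr16:69726661-69726689, plus strand: cggaggatgcTGAGGCTGCagctccagga
A match describes letters in these windows and is not evidence of binding. Windows of SRXN1, TXN and GCLC held neither core, and elements farther from the start were not searched.

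The MHCC97H library held 28967153 counted reads and the MHCC97L library 24964246, and the 10 genes together took 0.164% and 0.181% of them. CPM values use library sizes scaled by the trimmed mean of M-values (TMM). With 1 library per line there is no replicate error and no test across samples, so each comparison is between these 2 libraries. Ratios carry a 95% exact Clopper-Pearson interval of the split of reads, which covers counting error only, and amplified reads that carry no molecular identifier cannot be counted as separate molecules. In bulk RNA, fewer cells that express a gene and less RNA per cell cannot be told apart. Of 9 hepatocyte and liver carcinoma markers, summing to 19330 CPM in MHCC97H and 22578 CPM in MHCC97L, 7 exceeded 1 CPM in MHCC97H. Most of these sums came from KRT8 (8075 and 9060 CPM), SERPINA1 (5800 and 8422 CPM) and KRT18 (5275 and 4870 CPM). ALB, the albumin gene, was among the 7 at only 1.85 CPM in MHCC97H, and had 57 and 131 reads. AFP (12 and 23 reads) and APOA1 (4 reads in each) were near 0. Of 4 leukocyte markers, CD14 alone passed 1 CPM, and PTPRC had 1 and 0 reads. The sums were 5.07 and 3.87 CPM for these, 17.1 and 19.3 CPM for 4 fibroblast markers, and 0.293 and 0.553 CPM for 3 endothelial markers. Of the fibroblast markers, 3 exceeded 1 CPM in MHCC97H.

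The regulators NFE2L2 and KEAP1 stood in opposite directions. NFE2L2 had 1737 reads in MHCC97H (56.5 CPM) and 622 in MHCC97L (26.4 CPM). It was 2.14-fold higher in MHCC97H (95% counting interval 1.95 to 2.34), at the percentile 94.6 of the log2 ratios of all kept genes. Its log2 ratio of 1.09 became 0.48, under 1.5-fold, once a trend in GC content and transcript length was removed. KEAP1 had 4775 reads in MHCC97H (155 CPM) and 4643 in MHCC97L (197 CPM). It was 1.27-fold higher in MHCC97L (1.22 to 1.32), a direction that held under every scaling tried, although its log2 ratio of -0.35 was close to the median of -0.37 of genes of like GC content. From MHCC97L to MHCC97H the 2 genes thus differed in opposite directions as deposited, while KEAP1 had more reads than NFE2L2 in both libraries. In the annotation 20.9% of the exonic bases of NFE2L2 overlap exons of other genes, among them the opposite-strand gene AGPS, which had 919 and 367 reads and a log2 ratio of 0.94. No strand setting is given in the sources used here, and the part of this overlap in the NFE2L2 ratio was not tested.

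The subunits of glutamate-cysteine ligase, which makes the first and limiting step of glutathione synthesis, differed in direction as deposited. GCLC, the catalytic subunit gene, had 974 reads in MHCC97H (31.7 CPM) and 641 in MHCC97L (27.3 CPM). It was 1.16-fold higher in MHCC97H (1.05 to 1.29), with a log2 ratio of 0.22 that became -0.23 once that trend was removed. GCLM, the modifier subunit gene, had 1166 reads in MHCC97H (37.9 CPM) and 1138 in MHCC97L (48.4 CPM). It was 1.28-fold higher in MHCC97L (1.17 to 1.39). Both differences were under 1.5-fold as deposited, but with that trend removed GCLM stood at -1.04 on the log2 scale, past 2-fold.

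In the thioredoxin system, which reduces protein disulfides and recycles peroxiredoxins, the reductase and the thioredoxin it serves also differed in direction. TXNRD1, the cytosolic selenoenzyme thioredoxin reductase gene, had 5439 reads in MHCC97H (177 CPM) and 2561 in MHCC97L (109 CPM). It was 1.62-fold higher in MHCC97H (1.55 to 1.70). TXN, the thioredoxin gene, had 14778 reads in MHCC97H (481 CPM) and 15397 in MHCC97L (655 CPM), 1.36-fold higher in MHCC97L (1.33 to 1.39). TXNRD1 was thus higher in MHCC97H than in MHCC97L and TXN lower, while TXN was the more abundant of the pair per length in both libraries. With the trend removed TXNRD1 stood at a log2 ratio of 0.24, under 1.5-fold, and TXN at -0.82, past it. SRXN1, whose product sulfiredoxin restores overoxidised peroxiredoxins, had 2845 reads in MHCC97H (92.5 CPM) and 1780 in MHCC97L (75.7 CPM). It was 1.22-fold higher in MHCC97H (1.15 to 1.30), and this was one of the genes whose ratio barely moved when the trend was removed (log2 0.29 and 0.34). In GENCODE release 29, 85.0% of the exonic bases of SRXN1 overlap another gene on its own strand, which was not matched to a row of the counts.

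Among the remaining genes, NQO1 and OSGIN1 were lower in MHCC97H and ME1 was close to equal. NQO1, the quinone reductase gene that is a standard readout of NRF2 in human cells, had 13977 reads in MHCC97H (455 CPM) and 16814 in MHCC97L (715 CPM). It was 1.57-fold higher in MHCC97L (1.54 to 1.61). An antisense gene that shares 17.7% of its exonic bases had 160 and 181 reads, few beside those of NQO1. OSGIN1, an oxidative stress-induced growth inhibitor gene, had 477 reads in MHCC97H (15.5 CPM) and 682 in MHCC97L (29 CPM). It was 1.87-fold higher in MHCC97L (1.66 to 2.11), the lowest log2 ratio of the 10 genes as deposited. With the trend removed its log2 ratio of -0.90 became -0.50, under 1.5-fold, and GCLM, TXN, NQO1 and ME1 were lower. ME1, the cytosolic malic enzyme gene that yields NADPH, had 1263 reads in MHCC97H (41.1 CPM) and 883 in MHCC97L (37.5 CPM), a 1.09-fold difference (1.003 to 1.19) whose log2 ratio of 0.13 became -0.56 with the trend removed.

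**Figure D1:**
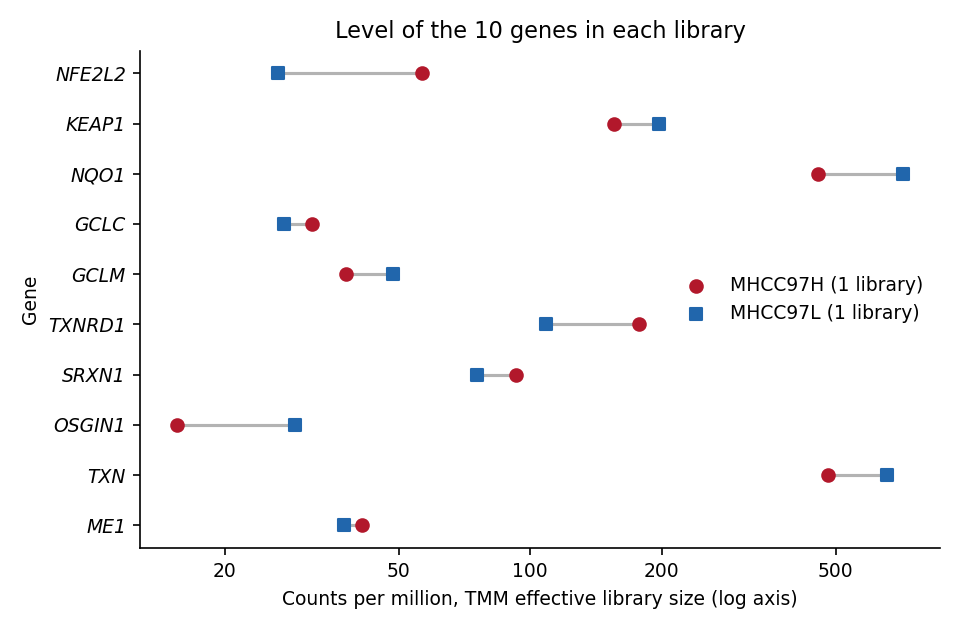
Level of each of the 10 genes, in CPM on a log axis, with circles for the MHCC97H library and squares for the MHCC97L library. The widest gaps are those of NFE2L2 (56.5 against 26.4 CPM), higher in MHCC97H, and OSGIN1 (15.5 against 29 CPM), higher in MHCC97L.

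Of the 10 genes, 5 had a positive and 5 a negative log2 ratio, with a median of -0.11 against 0.03 over all kept genes, or 0.06 against 0.20 with total counts. NFE2L2 alone passed a 2-fold rule, meaning a difference of 2-fold or more whose interval excludes equality, and none passed it in the lower direction. Over all kept genes 7.06% (1029) passed it as higher in MHCC97H and 4.65% (678) as lower, and with total counts in place of TMM 1657 were higher and 471 lower. At 1.5-fold, NFE2L2 and TXNRD1 were higher and NQO1 and OSGIN1 lower, where 19.3% of all kept genes were higher and 13.8% lower. With 10 genes, 2 in each direction is near those background shares.

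Levels between genes were compared as CPM per kilobase of exon, with the exons of all annotated transcripts of a gene joined. This length exceeds the median transcript length by unlike amounts. It is 5979 against 2651 bases for NFE2L2, 6708 against 3836 for TXNRD1 and 8646 against 3530.5 for GCLC. For SRXN1 (2698) and ME1 (3371) the 2 lengths are equal. The orders below therefore hold for this length only, and an order by transcript length was not computed. In MHCC97H the order was TXN (421), NQO1 (140), KEAP1 (41.3), SRXN1 (34.3), TXNRD1 (26.4), ME1 (12.2), NFE2L2 (9.45), GCLM (7.0), OSGIN1 (4.48) and GCLC (3.66). In MHCC97L the first 6 kept that order, at 573, 220, 52.5, 28.1, 16.2 and 11.1 CPM per kilobase. NFE2L2, at 4.42 CPM per kilobase, was there below GCLM (8.93) and OSGIN1 (8.38) and above GCLC (3.15). No spread between replicates is available to say which neighbours in these orders differ.

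The ratio of reads of a gene pair within a library needs no scaling between libraries. These are ratios of reads, not of reads per length, so each pair is compared only with itself across the libraries. There were 2.75 KEAP1 reads per NFE2L2 read in MHCC97H and 7.46 in MHCC97L, a ratio 2.72-fold higher in MHCC97L (95% Wald counting interval 2.46 to 3.0). GCLM reads per GCLC read numbered 1.20 in MHCC97H and 1.78 in MHCC97L, 1.48-fold higher in MHCC97L (1.30 to 1.69). TXNRD1 reads per TXN read were 0.368 in MHCC97H and 0.166 in MHCC97L, 2.21-fold higher in MHCC97H (2.1 to 2.33), and SRXN1 reads per TXN read were 0.193 and 0.116, 1.67-fold higher in MHCC97H (1.56 to 1.77). In all 4 pairs the balance between partners differed between the libraries beyond counting error. For BACH1, which encodes a repressor that competes with NRF2 for its elements, reads per NFE2L2 read were 0.223 in each library, a ratio of ratios of 1.00 (0.807 to 1.24). For a pair chosen after its values were seen, NQO1 reads per NFE2L2 read were 8.05 in MHCC97H and 27.0 in MHCC97L, 3.36-fold higher in MHCC97L (3.06 to 3.69). For another pair chosen in the same way, TXNRD1 reads per NQO1 read were 0.389 and 0.152, 2.55-fold higher in MHCC97H (2.43 to 2.69). With the trend removed, the 2.72-fold KEAP1 to NFE2L2 difference became 1.47-fold and the 3.36-fold NQO1 to NFE2L2 difference 2.17-fold, in the same direction.

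**Figure D2:**
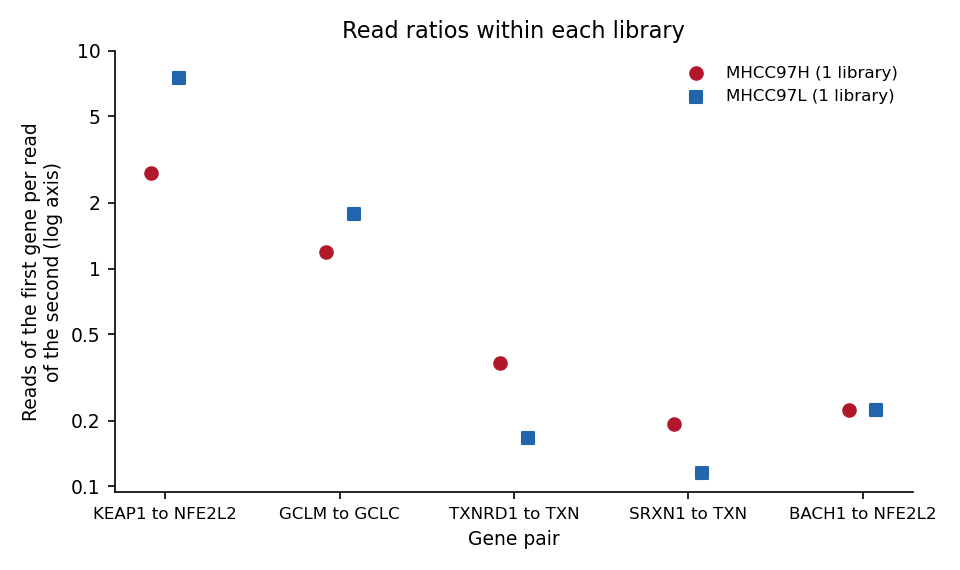
Reads of the first gene per read of the second in each library, on a log axis, with circles for MHCC97H and squares for MHCC97L. The KEAP1 to NFE2L2 ratio is 2.75 against 7.46, while the BACH1 to NFE2L2 ratio is 0.223 in both.

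The log2 ratio depended on base composition across all genes. Its Spearman correlation with transcript GC content was -0.64 and with transcript length 0.32, over 14061 genes with a value, which are not independent replicates. The 10 genes had a median GC content of 44.3%, against 50.7% over all genes. NFE2L2, at 40.6% GC, had a log2 ratio of 1.09, where genes of its GC group had a median of 0.59. TXNRD1, at 44.2%, stood at 0.70 against 0.42. TXN (39.2%) stood at -0.45 and ME1 (39.5%) at 0.13, where their group had a median of 0.74, and GCLM (40.1%) stood at -0.35 against 0.59. OSGIN1, the most GC-rich of the 10 at 63.4%, stood at -0.90 against -0.44. NQO1, at 48.0% GC, stood at -0.65 where its group had a median of 0.07. GCLC, at 44.3%, stood at 0.22 against 0.42. TXN, ME1, GCLM, GCLC, NQO1 and OSGIN1 therefore had ratios below the median of genes of like composition. SRXN1, at 53.6%, stood at 0.29, above the median of -0.04 of its group, and KEAP1, at 60.6%, at -0.35 against -0.37. NFE2L2 and TXNRD1 exceeded the median of their groups by less than their ratio alone shows.

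**Figure D3:**
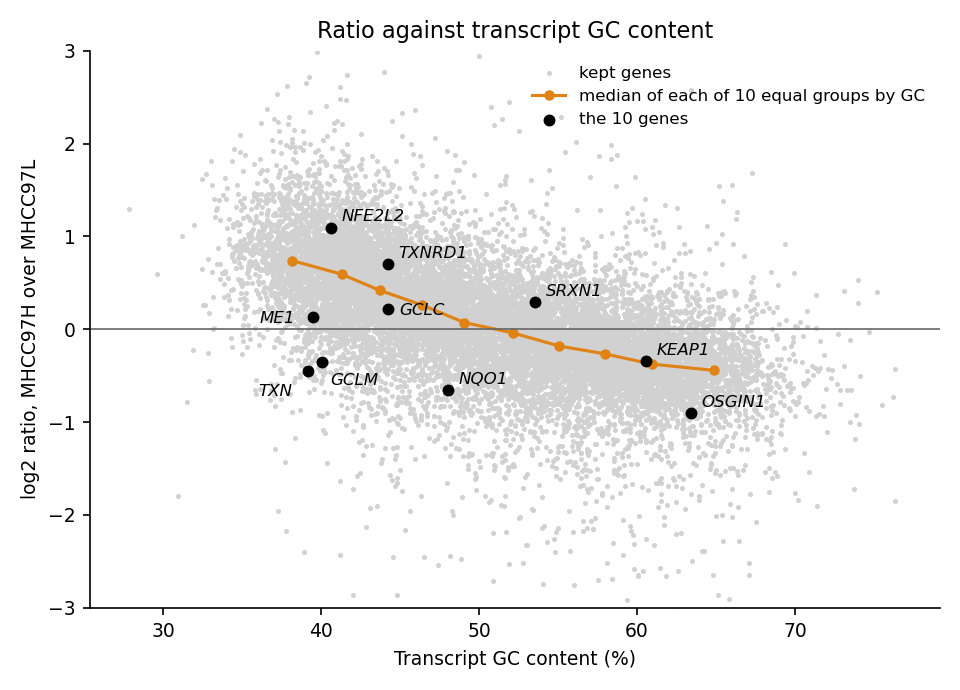
Log2 ratio of MHCC97H over MHCC97L against transcript GC content in percent, with grey points for kept genes, black points for the 10 genes, and the orange line for the median of each of 10 equal groups by GC content. The axis stops at 3 in both directions and leaves out 29 genes, and TXN, GCLM and ME1 lie well below the line, which falls from 0.74 to -0.44.

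Removal of a smooth trend in GC content and length changed the order of the 10 genes. NFE2L2 stood at a log2 ratio of 0.48 and TXNRD1 at 0.24, both under 1.5-fold. GCLM stood at -1.04 and alone passed the 2-fold rule, in the lower direction, and at 1.5-fold GCLM, TXN (-0.82) and NQO1 (-0.64) were lower and none was higher. Over all genes with a value, 2.43% were then higher and 3.49% lower at 2-fold, and 8.49% and 9.32% at 1.5-fold. KEAP1 (-0.07), OSGIN1 (-0.50) and SRXN1 (0.34) kept their sign, and GCLC and ME1 turned negative. NQO1 was the 1 gene of the 10 that passed 1.5-fold in the same direction with and without the trend, and with total counts in place of TMM it stood at -0.48, under 1.5-fold, when OSGIN1 (-0.73) was the 1 lower gene left. The median of the 10 genes was -0.36 after removal, with 3 positive and 7 negative, beside -0.0046 over all genes. What in the libraries moves with GC content was not tested.

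**Figure D4:**
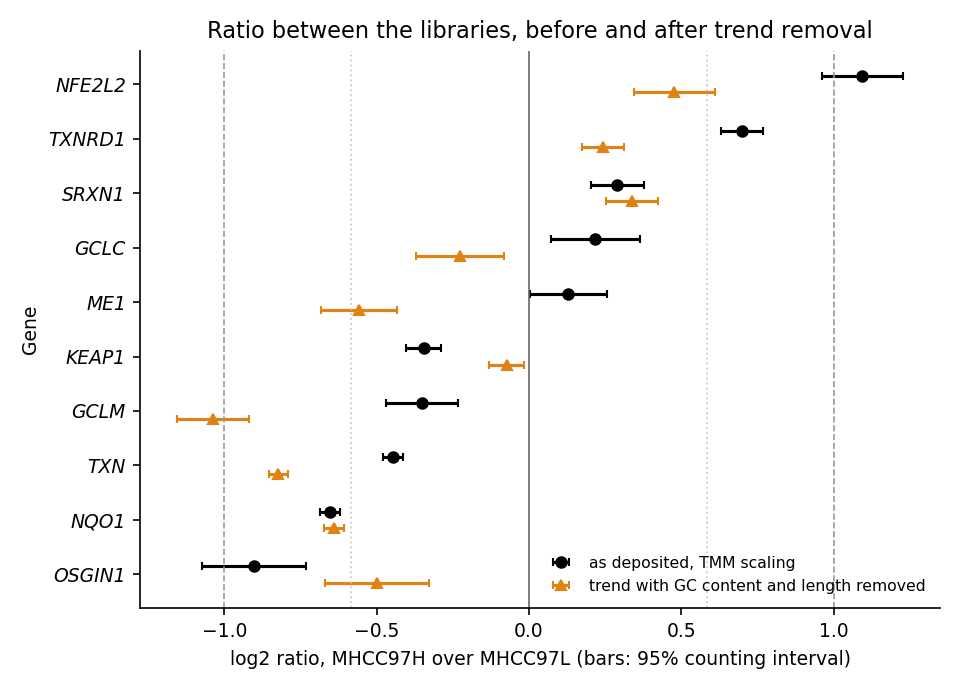
Log2 ratio of MHCC97H over MHCC97L for the 10 genes, with circles for the counts as deposited and triangles after removal of the trend in GC content and length, bars for the 95% counting interval, and dashed and dotted lines at 2-fold and 1.5-fold. NFE2L2 moves from 1.09 to 0.48 and GCLM from -0.35 to -1.04, while NQO1 stays near -0.65.

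Other regulators of NRF2 had no common direction. Of 19 genes on this list, all kept, the median log2 ratio was -0.04. Where all kept genes gave 7.06% higher and 4.65% lower at 2-fold, this list had 1 higher and none lower. That gene was BACH1, with 388 reads in MHCC97H (12.6 CPM) and 139 in MHCC97L (5.91 CPM), a log2 ratio of 1.09 (0.81 to 1.38), or 0.30 with the trend removed. At 1.5-fold the others higher were NFE2L3 (0.79), BACH2 (0.77) and CUL3 (0.60), the scaffold gene of the ligase that KEAP1 serves, the last 3 being named after their values were seen. SQSTM1, whose product p62 sequesters KEAP1, was the 1 lower gene at 1.5-fold, at 972 CPM against 1529 CPM (log2 ratio -0.65, or -0.39 with the trend removed). At 1.5-fold 4 of the 19 were thus higher and 1 lower, where all kept genes gave 19.3% and 13.8%. With the trend removed none of the 19 was past 1.5-fold in the higher direction. NFE2L3 and BACH2 then stood at 0.47 and 0.42, and CUL3 changed sign to -0.15. All genes with a value then gave 8.49% higher and 9.32% lower. The 1 lower gene was then BTRC (-0.66), a ubiquitin ligase adaptor gene named after its value was seen, in place of SQSTM1.

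Other NRF2 target genes were mostly lower in MHCC97H. Of 22 listed, 20 were kept, and 17 of these had a negative log2 ratio, with a median of -0.79. At 2-fold 7 were lower and ABCC4, a drug and nucleotide exporter gene named after its value was seen, was the 1 higher (1.25), where 4.65% of all kept genes were lower and 7.06% higher. ALDH3A1, an aldehyde dehydrogenase gene, had 35 reads in MHCC97H and 162 in MHCC97L, a log2 ratio of -2.58 (-3.17 to -2.06). The haem oxygenase gene HMOX1, also a BACH1 target, was at 18.4 CPM against 105.6 CPM. AKR1C1 (-2.43) and AKR1C2 (-1.93), steroid and carbonyl reductase genes, may share reads with near-identical paralogs. With total counts 5 genes of the list were lower at 2-fold and the median was -0.62, where 471 of 14578 kept genes were lower. With the trend removed the median was -0.59, 8 were lower at 2-fold and none higher, where 3.49% of all genes were lower and 2.43% higher. ALDH3A1, HMOX1, AKR1C1 and AKR1C2 then stood at -2.24, -2.25, -3.06 and -2.31. As deposited, the 3 genes with a positive ratio were ABCC4, UGDH (0.22) and CBR1 (0.08), the last 2 also named after their values were seen. Among the 10 genes, NQO1, OSGIN1, GCLM and TXN were negative as well, while TXNRD1, SRXN1, GCLC and ME1 were positive as deposited. The list was drawn up with earlier results of these data known, so its direction is not independent evidence.

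**Figure D5:**
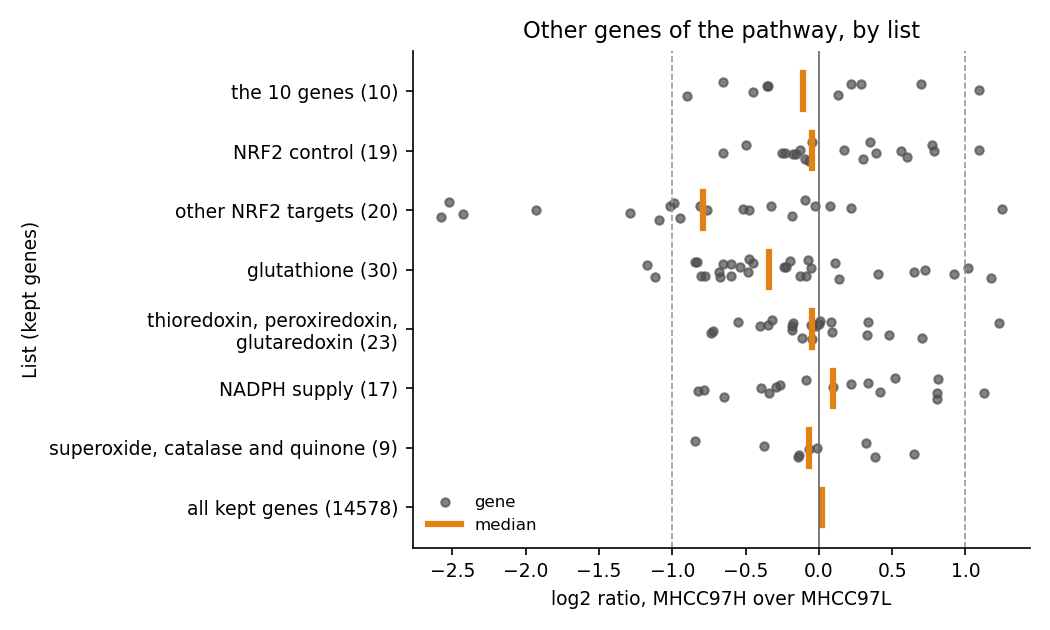
Log2 ratio of MHCC97H over MHCC97L for the kept genes of each list (points, numbers in parentheses) with the median of each list in orange and dashed lines at 2-fold. The other NRF2 targets have a median of -0.79, beside 0.03 over all kept genes.

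Genes of glutathione synthesis and use were more often lower than higher in MHCC97H. Of 42 listed, 30 were kept, 22 with a negative and 8 with a positive log2 ratio, and the median was -0.34. At 2-fold 2 were higher and 2 lower, where all kept genes gave 7.06% and 4.65%. GLO1, the glyoxalase gene that detoxifies methylglyoxal with glutathione, had 1830 reads in MHCC97H (59.5 CPM) and 619 in MHCC97L (26.3 CPM), a log2 ratio of 1.18. The other higher gene was GPX8, with 43 and 16 reads (1.02, interval 0.18 to 1.97), named after its value was seen. GGT7, a gamma-glutamyltransferase family gene (-1.17), and the glutathione transferase gene GSTM4 (-1.11), which has close paralogs that may share its reads, were lower. At 1.5-fold 5 were higher and 11 lower, where all kept genes gave 19.3% and 13.8%. With the trend removed none passed 2-fold, and 1 was higher and 3 lower at 1.5-fold. The higher one was GSR, the glutathione reductase gene, named after its value was seen, at 0.90 (0.72 as deposited). GLO1 then stood at 0.57, under 1.5-fold. All genes with a value then gave 8.49% and 9.32% at 1.5-fold. The median of the list was then -0.16, with 11 positive and 18 negative. With total counts 6 were lower at 1.5-fold, where 1216 of 14578 kept genes were lower. GPX5, GPX6, GPX7 and GSTA3 had no read in either library, which allows up to 0.0976 CPM in MHCC97H and 0.128 CPM in MHCC97L (3 counts on the TMM-scaled library size).

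Thioredoxin, peroxiredoxin and glutaredoxin genes lay close to equality. Of 24 listed, 23 were kept, with a median of -0.04, and SESN1, a sestrin gene, was the 1 past 2-fold, at 14.5 CPM against 6.17 CPM (log2 ratio 1.23, or 0.66 with the trend removed). The abundant PRDX1, a peroxiredoxin gene, was at 690.0 CPM against 911 CPM (-0.40). At 2-fold all kept genes gave 7.06% higher and 4.65% lower. At 1.5-fold 2 genes of the list were higher and 2 lower, where all kept genes gave 19.3% and 13.8%. With the trend removed 1 was higher and 3 lower, where all genes with a value gave 8.49% and 9.32%.

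NADPH supply genes were spread in both directions. Of 19 listed, 17 were kept, with a median of 0.10, and ME2, the mitochondrial malic enzyme gene, was the 1 past 2-fold (31.4 CPM against 14.3 CPM, log2 ratio 1.13, or 0.57 with the trend removed). TKT, the transketolase gene of the pentose phosphate pathway, was at 1113 CPM against 1912 CPM (-0.78, or -0.55 with the trend removed). At 2-fold all kept genes gave 7.06% higher and 4.65% lower. At 1.5-fold 4 NADPH genes were higher and 3 lower, where all kept genes gave 19.3% and 13.8%. With the trend removed 1 was higher and none lower at 1.5-fold, where all genes with a value gave 8.49% and 9.32%. Of 9 genes for superoxide, peroxide and quinone handling, all kept, the median was -0.07 and none passed 2-fold. At 1.5-fold 1 was higher and 1 lower, beside the same shares of 19.3% and 13.8% over all kept genes. SOD3, the extracellular superoxide dismutase gene, stood at -0.85 (-0.32 with the trend removed, under 1.5-fold), and PARK7 at -0.13. The higher gene was SOD2, the mitochondrial superoxide dismutase gene, named after its value was seen, at 0.65 (0.77 with the trend removed).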

How the data were processed

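The deposited table holds raw read counts per gene for 2 libraries, 1 per line, assigned through the labels' descriptions. The submitters' processing notes name HTSeq 0.11.2, HISAT2 2.1.0, bcl2fastq and the build hg19, with no role or order. Which gene annotation and strand option the authors used, and how reads with several alignments were counted, is not stated in the sources used here. Genes with at least 1 CPM of total counts in at least 1 library were kept. TMM factors from these genes were 1.06 for MHCC97H and 0.942 for MHCC97L (edgeR 4.0.16, R 4.3.3). Log2 ratios used a prior count of 0.5. With 1 library per line no p-value is given.

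Transcript GC content and length were medians over basic transcripts of GENCODE release 29, with a value for 96.5% of kept genes, all 10 members and 117 of 118 kept pathway genes. A lowess trend (span 0.2) in GC content and log2 length was subtracted as an alternative. Exon lengths and overlaps came from the same release, which was made for another build than hg19. DESeq2 1.42.0 gave other size factors. Python 3.11.15, numpy 2.4.6, pandas 2.3.3, scipy 1.17.1, statsmodels 0.14.6 and matplotlib 3.10.9 were used, and the steps were tested on simulated data.

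The members and the 6 lists were chosen with earlier results of these data known. Named genes were the 10 members and, per list, up to 4 genes past 2-fold with at least 5 CPM in the higher library, by size of ratio, or the most abundant up to 2 where fewer passed, and both partners of each pair ratio. Genes named outside this rule are said to be so.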

Additional observations from a re-analysis of the deposited data

How the results depend on the processing

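Of 229 values recomputed under other settings, 180 stayed within their counting or order interval or within 1.5 times the count, all of those under DESeq2 size factors and a prior count of 2 among them. Not all could move, since each of the 10 genes exceeds 5 CPM and the filters left their counts and median as they were. The order intervals of medians are wide, for the 10 genes -0.65 to 0.70. Their median thus counted as staying although total counts took it from -0.11 to 0.06. Total counts in place of TMM moved the median of all genes by 0.17, with no change of sign among the 10 genes: NFE2L2 1.27, KEAP1 -0.17, NQO1 -0.48, GCLC 0.39, GCLM -0.18, TXNRD1 0.87, SRXN1 0.46, OSGIN1 -0.73, TXN -0.27 and ME1 0.30. At 1.5-fold 1 of the 10 was then lower, as were 0 NRF2 control genes, 6 glutathione genes and 0 thioredoxin genes. No glutathione gene was lower at 2-fold (0), and the thioredoxin median was 0.13. With no filter, 2 NADPH genes were lower at 2-fold and 5 at 1.5-fold, and with a filter at 5 CPM 1 glutathione gene was higher at 2-fold.

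Without the trend in GC content and length, the ratios were NFE2L2 0.48, KEAP1 -0.074, GCLC -0.23, GCLM -1.04, TXNRD1 0.24, OSGIN1 -0.50, TXN -0.82 and ME1 -0.56. GCLC and ME1 changed sign. Of the 10 genes 0 were higher at either fold and 1 was lower at 2-fold. At 2-fold 0 genes were higher in the NRF2 control, NRF2 target, glutathione, thioredoxin and NADPH lists, and 0 glutathione genes were lower. At 1.5-fold 0 NRF2 control genes, 1 glutathione, 1 thioredoxin and 1 NADPH gene were higher, and 3 glutathione, 0 NADPH and 0 superoxide, catalase and quinone genes lower. The ratios of MHCC97H over MHCC97L within pairs became 0.682 for KEAP1 to NFE2L2, 0.570 for GCLM to GCLC, 2.09 for TXNRD1 to TXN and 2.24 for SRXN1 to TXN. For the pairs chosen after the data were seen they became 0.461 for NQO1 to NFE2L2 and 1.84 for TXNRD1 to NQO1. Over all genes, 1029 were higher and 678 lower at 2-fold in the main setting, against 1657 and 471 with total counts, 1427 and 1443 with no filter, 697 and 225 with the filter at 5 CPM, and 341 and 491 without the trend. At 1.5-fold 2813 genes were higher and 2009 lower in the main setting, against 3924 and 1216 with total counts. With no filter 3211 and 2777 were, and without the trend 1194 and 1310. The cause of these moves was not tested. No paired analysis was possible because each line has 1 library, and for the same reason none could be left out.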

Other observations

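Genes outside the 10 that bear on the same chemistry are given here as values, all chosen after their values were seen. In the oxidative pentose phosphate pathway, a cytosolic source of NADPH, PGLS was at 124 CPM in MHCC97H and 219 CPM in MHCC97L (log2 ratio -0.82, or -0.22 with the trend removed). PGD was at 258 CPM against 340.0 CPM (-0.40, or -0.30 with the trend removed). In folate metabolism, another source of NADPH, MTHFD1 was at 154 CPM against 88.2 CPM (0.81, or 0.54 with the trend removed) and MTHFD2 at 100.4 CPM against 57.4 CPM (0.81, or 0.30). The signs of these 4 genes did not change with the trend removed, while the sizes fell. In the annotation 33.2% of the exonic bases of MTHFD2 overlap opposite-strand genes.

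The ferritin subunit genes FTH1 and FTL, iron storage genes that NRF2 activates, were among the most abundant on the lists. FTH1 was at 3426 CPM in MHCC97H and 7297 CPM in MHCC97L (log2 ratio -1.09, or -0.80 with the trend removed), and FTL at 1130.4 CPM against 1981 CPM (-0.81, or -0.40). Both have processed pseudogenes of near-identical sequence, so their counts are uncertain, and 62.4% of the exonic bases of FTH1 overlap the opposite-strand gene BEST1.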
